A study of Homo sapiens with 8 samples.

Results

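The NF-κB genes described here are 10: the 5 subunits NFKB1, NFKB2, REL, RELA and RELB, the 4 inhibitors NFKBIA, NFKBIB, NFKBIE and TNFAIP3, and the coregulator BCL3. Their transcripts were measured by RNA-seq of breast cancer cells treated with Acetalax. They are rows of the count table matched by gene symbol, and the set was drawn up with earlier results of these data known; all 10 of 10 were found among the 55679 gene identifiers of the count table and passed the filter on low counts in every fit. The 8 libraries came from MDA-MB468 and BT549, a pair of human triple-negative breast cancer cell lines that are sensitive to Acetalax (oxyphenisatin acetate), and from chronic exposure (CE) cells derived from each. CE cells were resistant clones, selected with rising Acetalax that started at 0.2 μmol/L, kept at 40 μmol/L and then grown without the compound for 2 weeks. Parental and CE cells of each line gave 1 control library and 1 library after 1 μmol/L Acetalax for 6 hours. Each condition therefore had 1 library, so a difference between 2 libraries has no replicate check, and the 4 backgrounds (2 lines, each parental or CE) served as replicates for Acetalax. CE cells descend from the parental cells of the same line, so these 4 are not fully independent, and p-values take in no spread other than that between them. In the fits, the spread of each gene was estimated partly from that of all genes tested. In bulk RNA, fewer cells that express a gene and less of its RNA per cell cannot be told apart.

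NF-κB factors are dimers of Rel family proteins that wait in the cytoplasm, held by inhibitory IκB proteins. In the canonical arm, signals from cytokine or pattern receptors lead to degradation of IκB proteins and free dimers that hold RELA or REL; in the noncanonical arm, processing of the NFKB2 precursor frees dimers with RELB. Several genes of the system are themselves NF-κB targets, and the products of NFKBIA and TNFAIP3 act as negative feedback on the pathway.

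Each library held between 42261122 and 54241728 counts on genes, so a gene at 1 CPM (counts on the gene, scaled by the library's total on genes) had from 42.3 to 54.2 counts. The share of counts on mitochondrial genes ranged from 4.00% to 10.0% and was lower in the Acetalax library than in its control in all 4 pairs; its part in the results was not tested. MDA-MB468 libraries carried epithelial markers (summed CPM of 7 genes from 4821 to 8535, against 5.79 to 83.6 in BT549) and BT549 libraries carried mesenchymal markers (5 genes, from 3704 to 5071 CPM, against 15.6 to 55.7 in MDA-MB468). The mesenchymal sum was higher in BT549 CE than in parental controls through SPARC (439 to 3447 CPM), while VIM, CDH2, ZEB1 and FN1 were lower there. No library had more than 5.15 CPM of ESR1 or 0.63 CPM of PGR, genes whose absence or low level defines the triple-negative type. ERBB2, a gene of the same group, was between 41.2 and 95.2 CPM. The 5 leukocyte markers summed to between 1.61 and 3.33 CPM in BT549 and between 7.70 and 47.3 CPM in MDA-MB468, where CD14 made up most of it, and CD3E was at 0 in all 8 libraries. After Acetalax the leukocyte sum was lower in MDA-MB468 (47.3 to 20.9 CPM in parental and 14.0 to 7.70 CPM in CE cells), through CD14, while ITGAM was higher there (0.10 to 0.49 and 0.20 to 1.26 CPM). In BT549 the sum was higher (1.61 to 3.33 CPM in parental and 2.60 to 2.71 CPM in CE cells), and the part of such cells in the results was not tested.

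Acetalax went with higher transcript levels of the noncanonical subunits RELB and NFKB2 and of the feedback inhibitors TNFAIP3 and NFKBIA, and with a lower level of BCL3. Over the 4 backgrounds these 5 of 10 genes passed the edgeR quasi-likelihood test at a Benjamini-Hochberg adjusted p under 0.05, where 5.0% of the 19693 genes tested did (2.72% higher and 2.27% lower). The fitted log2 change was 2.49 for TNFAIP3 (SE 0.46, adjusted p = 0.0385), 2.08 for RELB (SE 0.26, adjusted p = 0.0286), 1.46 for NFKB2 (SE 0.18, adjusted p = 0.0286), 0.69 for NFKBIA (SE 0.11, adjusted p = 0.0326) and -0.64 for BCL3 (SE 0.12, adjusted p = 0.0398). The other 5 genes did not pass, with fitted log2 differences from 0.45 to 0.83 and edgeR adjusted p from 0.056 (NFKBIE) to 0.116 (NFKB1). These calls depended on single backgrounds. Without the MDA-MB468 parental pair, edgeR called 0 of 18967 genes (3491 had an unadjusted p under 0.05) and 0 of the 10 (9 had such a p). The fitted log2 changes in that fit were 2.02 for TNFAIP3, 1.84 for RELB, 1.37 for NFKB2, 0.74 for NFKBIA and -0.66 for BCL3. RELB and NFKB2 passed in each of the other 3 fits with 1 background left out. TNFAIP3 did not pass without MDA-MB468 CE (edgeR adjusted p = 0.0595) or BT549 CE cells (0.0568), NFKBIA without BT549 parental (0.0528) or BT549 CE cells (0.0529), and BCL3 without MDA-MB468 CE (0.0762) or BT549 parental cells (0.104).

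Of the 19693 genes tested, TNFAIP3 ranked 51, RELB 110 and NFKB2 311 by the fitted log2 change. By the log2 ratio of CPM in each pair (0.5 CPM added to both), 8 of the 10 genes were higher in all 4 Acetalax libraries than in their controls, as were 12.7% of the 11135 genes that averaged at least 5 CPM. BCL3 was lower in all 4, as were 30.6% of those genes. An exact two-sided sign-flip permutation test over 4 pairs cannot go below p = 0.125, which these 9 genes reached, and gave p = 0.25 for REL.

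**Figure D1:**
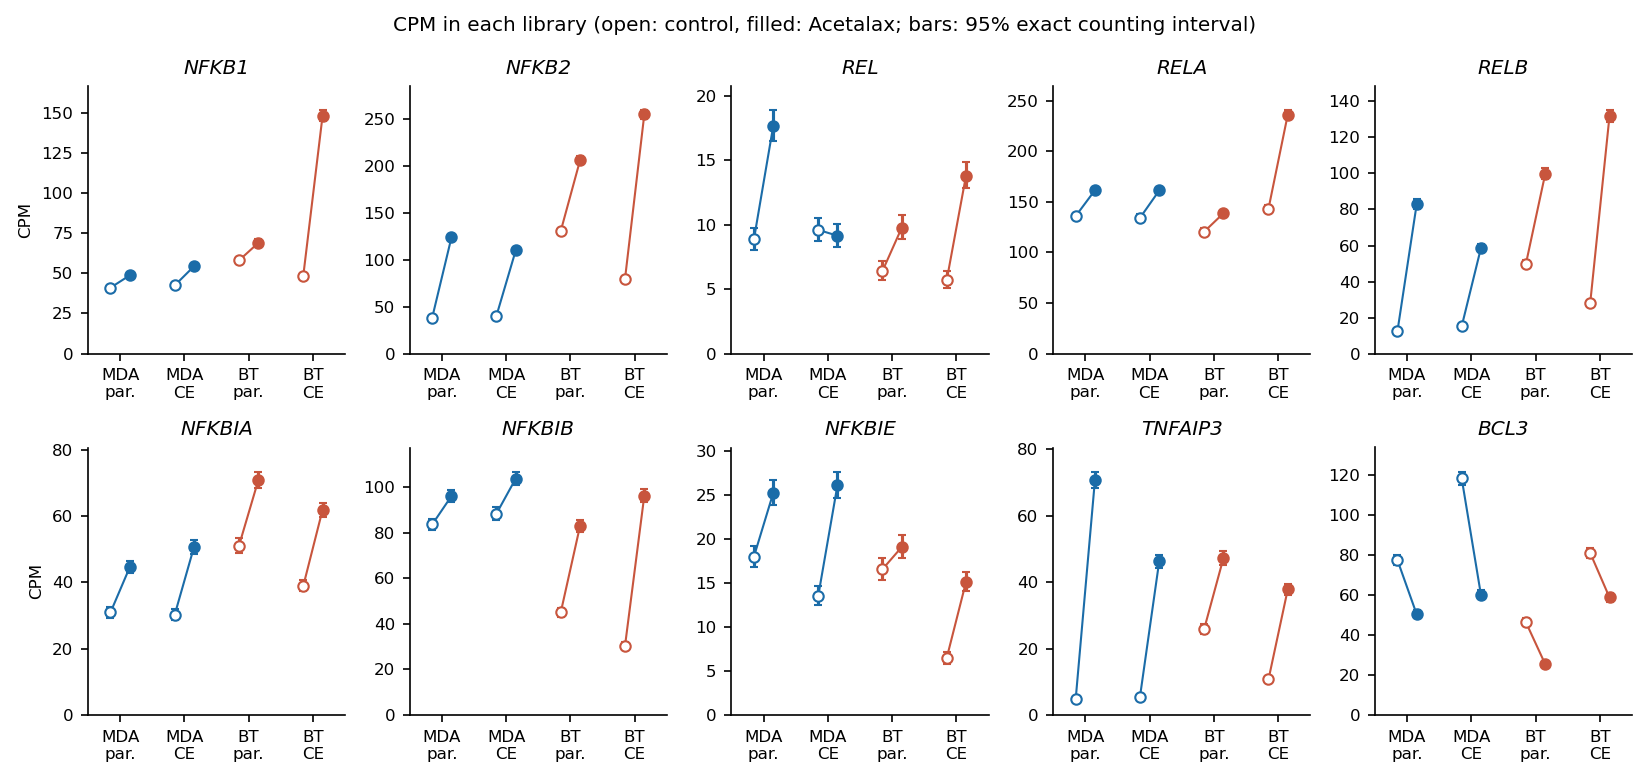
CPM (vertical axis, from 0) of each of the 10 genes in the 8 libraries, with the 4 backgrounds on the horizontal axis (MDA, MDA-MB468; BT, BT549; par., parental), open circles for control, filled circles for Acetalax and bars for the exact 95% counting interval. The filled circle lies above the open one in all 4 backgrounds for 8 genes, below it in all 4 for BCL3, and in 3 of 4 above for REL.

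The promoters of the genes were searched for the κB consensus, the 10-base element bound by NF-κB dimers, on both strands, with overlapping matches merged. RefSeq windows (GRCh38.p14) of 250 bases before to 50 bases after each annotated start were found for 8 of the 10 genes; RELB and NFKBIE had no entry. Of these 8, 7 held a match, and 13.3% of all 27305 genes with a window and 16.3% of the 14063 protein-coding genes of the count table did; RELA held none in either of its windows. A match is a description of the letters and not a bound site, and BCL3, which fell, held a match as well. The stretches are shown because they hold the matches, in capitals, of the genes described here, 5′ to 3′ on the strand of the gene, and positions count from the annotated start as 0. They lie at chr6:137867162-137867231 (TNFAIP3, plus strand, matches at -67 to -58 and -55 to -46), chr10:102394441-102394511 (NFKB2, plus strand, -107 to -97 and -78 to -69), chr14:35404791-35404860 (NFKBIA, minus strand, -81 to -72), chr4:102501280-102501349 (NFKB1, plus strand, -49 to -40), chr2:60881497-60881567 (REL, plus strand, -47 to -37), chr19:38899911-38899968 (NFKBIB, plus strand, -28 to -18) and chr19:44748700-44748729 (BCL3, plus strand, 2 to 11).
TNFAIP3: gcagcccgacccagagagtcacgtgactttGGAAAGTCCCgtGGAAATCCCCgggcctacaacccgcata
NFKB2: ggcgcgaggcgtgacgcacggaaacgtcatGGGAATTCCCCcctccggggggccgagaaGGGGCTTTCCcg
NFKBIA: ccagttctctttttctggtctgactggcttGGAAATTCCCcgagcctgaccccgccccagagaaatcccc
NFKB1: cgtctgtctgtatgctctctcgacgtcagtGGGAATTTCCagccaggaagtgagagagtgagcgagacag
REL: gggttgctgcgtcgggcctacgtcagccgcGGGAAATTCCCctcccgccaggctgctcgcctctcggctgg
NFKBIB: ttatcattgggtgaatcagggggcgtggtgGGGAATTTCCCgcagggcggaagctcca
BCL3: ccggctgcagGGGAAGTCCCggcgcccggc
NFKB2 had further matches at a later start, at -176 to -167 and at -21 to -12, and NFKBIB at 38 to 47.

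**Figure D2:**
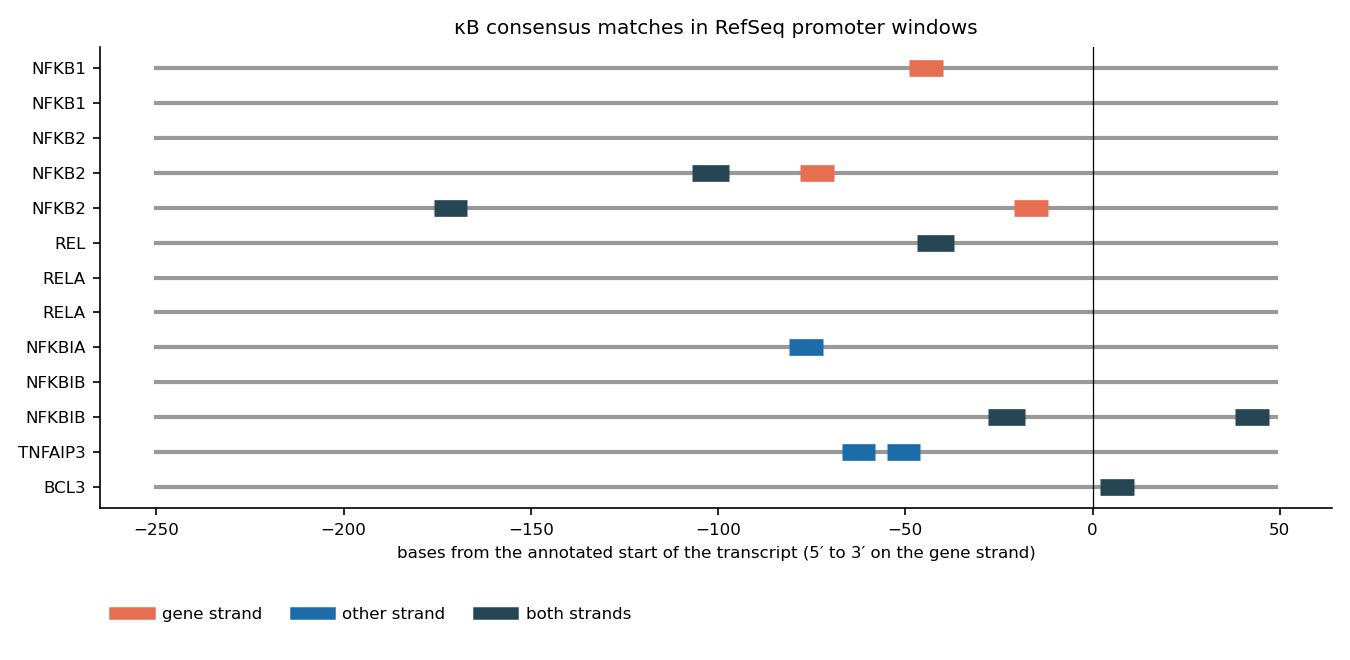
Matches to the κB consensus (coloured blocks) in the RefSeq promoter windows of 8 genes, 1 line per window, against the distance in bases from the annotated start (horizontal axis); colours give the strand of the match. Most matches lie before the start, and both RELA windows and 1 window each of NFKB1, NFKB2 and NFKBIB are empty.

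RELB, the Rel subunit of noncanonical dimers, lies at chr19:45504688-45541452 on the plus strand (hg19, as are the gene positions that follow). In MDA-MB468 it went from 12.2 CPM in control to 83.0 CPM after Acetalax in parental cells and from 15.1 to 58.6 CPM in CE cells. In BT549 it went from 49.9 to 99.8 CPM in parental cells and from 28.1 to 131.9 CPM in CE cells. Every Acetalax library was thus above every control library, including those of the other line, which held for RELB and TNFAIP3 alone of the 10 genes and for 1.32% of the 11135 genes. As log2 ratios these were 2.71 (95% counting interval 2.64 to 2.89) and 1.93 (1.84 to 2.09) in MDA-MB468 parental and CE cells, and 0.99 (0.92 to 1.08) and 2.21 (2.15 to 2.31) in BT549 parental and CE cells. Such intervals cover counting error only, not the spread between cultures.

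NFKB2, at chr10:104153867-104162281 on the plus strand, encodes the precursor whose processing yields the partner of RELB. Its level rose from 38.3 to 123.8 CPM in MDA-MB468 parental cells and from 40.3 to 110.0 CPM in MDA-MB468 CE cells. BT549 parental cells had 130.5 CPM in control and 205.7 CPM after Acetalax, and BT549 CE cells had 79.7 and 254.6 CPM. The BT549 parental control was already above both MDA-MB468 Acetalax libraries, so control and Acetalax groups overlapped across lines but not within a background. The log2 ratios were 1.68 and 1.44 in MDA-MB468 parental and CE cells and 0.65 and 1.67 in BT549.

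RELA, the main transactivating subunit of canonical dimers, lies at chr11:65421067-65430565 on the minus strand. It varied least of the subunits among controls in proportion to its level, from 120.6 to 143.3 CPM, and ranged from 138.8 to 236.4 CPM after Acetalax. Its log2 ratios were 0.25, 0.27 and 0.20 in MDA-MB468 parental, MDA-MB468 CE and BT549 parental cells and 0.72 (0.68 to 0.76) in BT549 CE cells, so 1 background stood apart from the rest.

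NFKB1, at chr4:103422486-103538459 on the plus strand, encodes the precursor of the usual RELA partner and showed the same arrangement more strongly. Control libraries lay between 41.1 and 58.2 CPM, the Acetalax libraries of MDA-MB468 parental, MDA-MB468 CE and BT549 parental cells at 48.8, 54.5 and 69.1 CPM, and that of BT549 CE cells at 148.5 CPM. The log2 ratio was 1.60 (1.55 to 1.68) in BT549 CE cells and between 0.25 and 0.35 in the other 3 backgrounds. The spread over the 4 pairs (mean 0.61 ± 0.66, SD) was larger than the mean.

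REL, at chr2:61108656-61158745 on the plus strand, encodes c-Rel, a subunit best known from lymphocytes, and had the lowest CPM of the 10 genes in 6 of the 8 libraries. It was at 8.88 and 17.7 CPM (control, Acetalax) in MDA-MB468 parental cells, 9.60 and 9.15 in CE cells of that line, 6.41 and 9.77 in BT549 parental cells and 5.72 and 13.8 in BT549 CE cells. The log2 ratio in MDA-MB468 CE cells was -0.07 with an interval from -0.27 to 0.13 (0.01 with DESeq2's size factors), and it was 0.95, 0.57 and 1.20 in the other 3 backgrounds in that order. An unnamed long noncoding RNA on the same strand shares 33.3% of the merged exon bases of REL and had 0 counts, so counts of REL are uncertain where both genes lie.

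NFKBIA, at chr14:35870717-35873955 on the minus strand, encodes IκBα, the inhibitor that is degraded and then resynthesised in the canonical response. It went from 31.0 to 44.6 CPM and from 30.3 to 50.7 CPM in MDA-MB468 parental and CE cells, and from 51.1 to 70.8 CPM and from 39.0 to 61.9 CPM in BT549 parental and CE cells. The log2 ratios, between 0.47 and 0.73, had the smallest spread of the 10 genes (mean 0.60 ± 0.12, SD, n = 4 pairs).

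TNFAIP3, at chr6:138188351-138204449 on the plus strand, encodes a ubiquitin-editing enzyme that shuts off signalling upstream of the IκB kinase. In MDA-MB468 it was at 4.75 CPM (231 counts) in parental control cells and 70.8 CPM (3438 counts) after Acetalax, and at 5.44 and 46.3 CPM in CE cells. The BT549 values were 26.0 and 47.3 CPM in parental cells and 10.7 and 37.8 CPM in CE cells. Controls of MDA-MB468 were below those of BT549, whereas the highest Acetalax library was that of MDA-MB468 parental cells. On the log2 scale the ratios were 3.76 (3.70 to 4.10) and 2.98 (2.90 to 3.29) in MDA-MB468 parental and CE cells and 0.85 (0.76 to 0.97) and 1.77 (1.68 to 1.96) in BT549, which is 14.9-fold, 8.51-fold, 1.82-fold and 3.53-fold. A noncoding RNA on the opposite strand, WAKMAR2, shares 95 exon bases with TNFAIP3 and had a mean of 16.9 counts, against 1470 for TNFAIP3.

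NFKBIB and NFKBIE encode IκBβ and IκBε, IκB proteins related to IκBα. NFKBIB (chr19:39390340-39399533, plus strand) was at 83.7 and 96.2 CPM (control, Acetalax) in parental and 88.5 and 103.9 CPM in CE cells of MDA-MB468. BT549 parental cells had 45.1 and 83.0 CPM and BT549 CE cells 30.4 and 96.4 CPM, so the 2 BT549 controls were low and the Acetalax libraries of both lines were close. The log2 ratios were 0.20 and 0.23 in MDA-MB468, and 0.87 and 1.65 in BT549. NFKBIE (chr6:44225903-44233500, minus strand) ranged from 6.49 to 18.0 CPM in control and from 15.1 to 26.1 CPM after Acetalax, with log2 ratios of 0.48 and 0.93 in MDA-MB468 and 0.20 and 1.16 in BT549, larger in CE than in parental cells of both lines. NFKBIB shares 40 exon bases with SIRT2 on the opposite strand, a gene with similar counts (mean 3112 against 3705).

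BCL3, at chr19:45250962-45263301 on the plus strand, encodes an atypical IκB protein that acts in the nucleus with homodimers of processed NFKB1 or NFKB2. It was the only one of the 10 genes that fell: from 77.4 to 50.3 CPM and from 118.2 to 59.9 CPM in MDA-MB468 parental and CE cells, and from 46.3 to 25.4 CPM and from 80.9 to 58.7 CPM in BT549 parental and CE cells. The log2 ratios were -0.62, -0.97, -0.85 and -0.46 in that order. Control levels in CE cells were above those in parental cells of both lines.

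**Figure D3:**
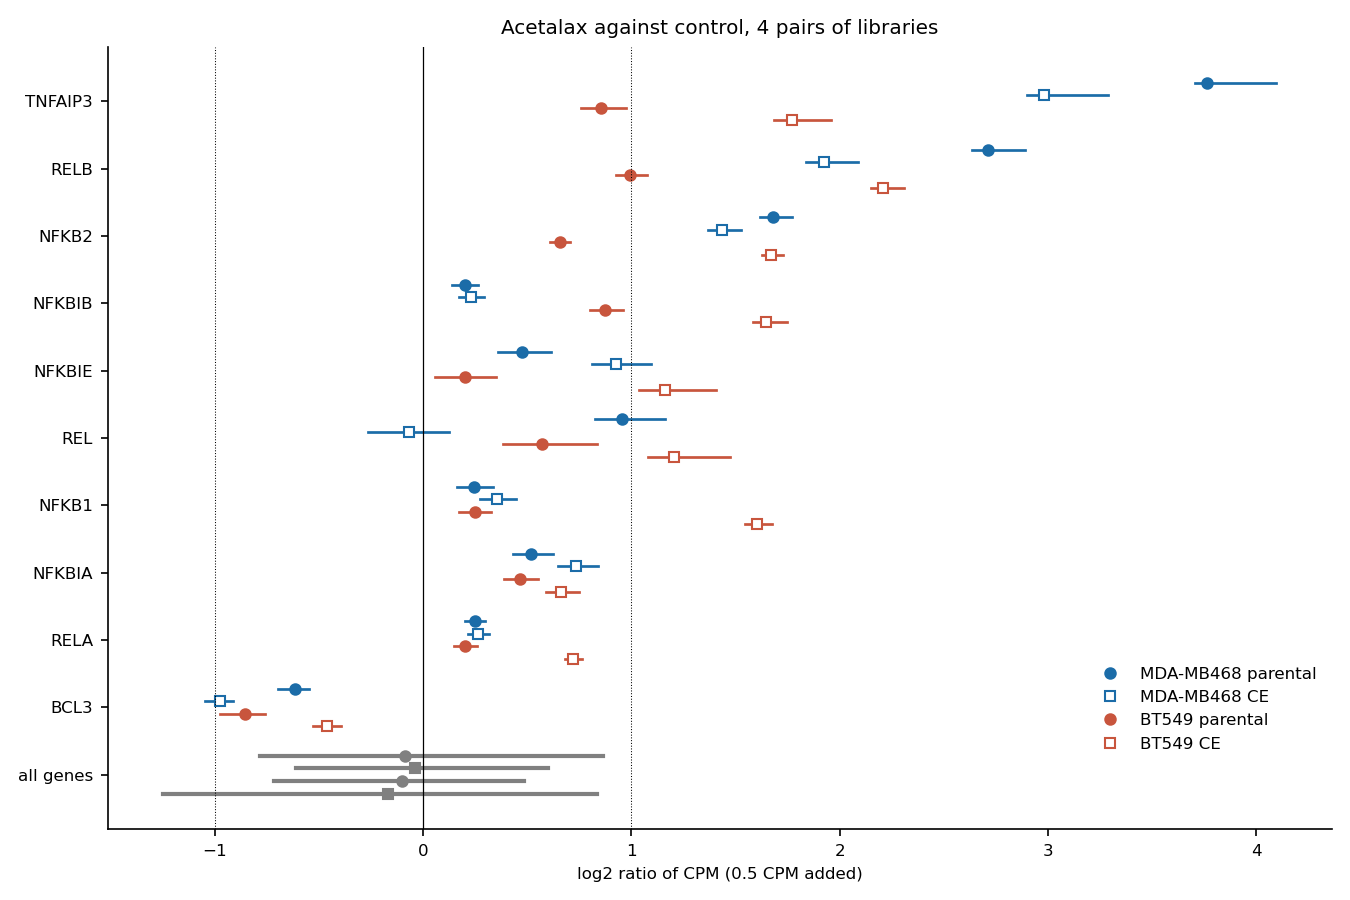
Log2 ratio of CPM, Acetalax against control (horizontal axis), for each gene in the 4 backgrounds, ordered by the mean ratio; lines give the 95% counting interval, computed without the added 0.5 CPM, and grey lines at the bottom the 5th to 95th percentile of the 11135 genes with their median. TNFAIP3 and RELB reach furthest right in MDA-MB468, BCL3 lies left of 0 in all 4 backgrounds, and BT549 CE cells (open orange squares) have the largest ratio for 5 of the 9 genes other than BCL3.

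Counted by pair, 3 of the 10 genes (RELB, NFKB2 and TNFAIP3) were at least 2-fold higher (log2 ratio of at least 1) in MDA-MB468 parental cells and the same 3 in MDA-MB468 CE cells, where 6.07% and 2.88% of all genes were past 2-fold in either direction and 3.81% and 1.5% were higher. In BT549 parental cells 0 of 10 were, against 2.25% of all genes (1.06% higher), with RELB just under the threshold. In BT549 CE cells 7 of 10 were at least 2-fold higher, against 12.8% of all genes past 2-fold and 3.51% in that direction. The median log2 ratio of the 10 genes was 0.50, 0.54, 0.52 and 1.40 in MDA-MB468 parental, MDA-MB468 CE, BT549 parental and BT549 CE cells, and that of all genes -0.09, -0.04, -0.10 and -0.17. With DESeq2's size factors the median of all genes in BT549 CE cells moved from -0.17 to 0.01, and that of the 10 genes from 1.40 to 1.60.

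Parental and CE cells were then compared in their responses. Tested alone, Acetalax in parental cells and Acetalax in CE cells gave 0 calls by edgeR among all 19693 genes (0.0%), although 1710 and 2311 genes, and 5 and 9 of the 10, had an unadjusted p under 0.05. DESeq2 called 75 and 289 of 14103 genes, of which 1 and 5 were among the 10. The test of the difference in response gave 0 calls by edgeR (0.0%, 91 genes with an unadjusted p under 0.05) and 0 by DESeq2. Within BT549, the log2 ratio was more positive in CE than in parental cells for all 10 genes (median difference 0.85), while 38.5% of all genes were more positive (48.5% with TMM scaling and 60.8% with DESeq2's size factors). The largest differences were those of NFKB1 (1.35, approximate 95% counting interval 1.25 to 1.45), RELB (1.22, 1.11 to 1.33) and NFKB2 (1.01, 0.95 to 1.08). In MDA-MB468 this held for 5 of 10 (56.3% of all genes), and REL (-1.02, -1.27 to -0.76), RELB (-0.79, -0.96 to -0.61) and TNFAIP3 (-0.78, -1.06 to -0.51) were less positive in CE cells. The counts of 10 and 5 among the 10 genes were the same under the 6 other scalings and pseudocounts; the shares of all genes were not.

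Without Acetalax, CE cells differed from parental cells of BT549 more than of MDA-MB468. In BT549, CE control levels were lower for 8 of 10 genes, and for 53.7% of all genes: NFKBIE by a log2 ratio of -1.29 (-1.54 to -1.16), TNFAIP3 by -1.24 (-1.42 to -1.13), RELB by -0.82 (-0.92 to -0.73), NFKB2 by -0.71, NFKBIB by -0.56, NFKBIA by -0.39, NFKB1 by -0.26 and REL by -0.15, whose interval included 0. NFKBIE and TNFAIP3 were past 2-fold, as were 9.95% of all genes (3.93% lower). In MDA-MB468 no gene of the 10 was past 2-fold, as were 2.6% of all genes, and 6 of the 10 log2 ratios lay between -0.03 and 0.11 (that of NFKB1 changed sign with DESeq2's size factors). BCL3 was higher in CE cells of both lines, by 0.61 (0.55 to 0.67) and 0.80 (0.73 to 0.88), and NFKBIE lower in both. Over both lines edgeR called 0 of 18377 genes (0.0%, 610 with an unadjusted p under 0.05, BCL3 alone among the 10) and DESeq2 46, none of them among the 10. The BT549 CE control library enters both these ratios and the Acetalax ratios of BT549 CE cells, so the lower control levels and the larger ratios there share a library.

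**Figure D4:**
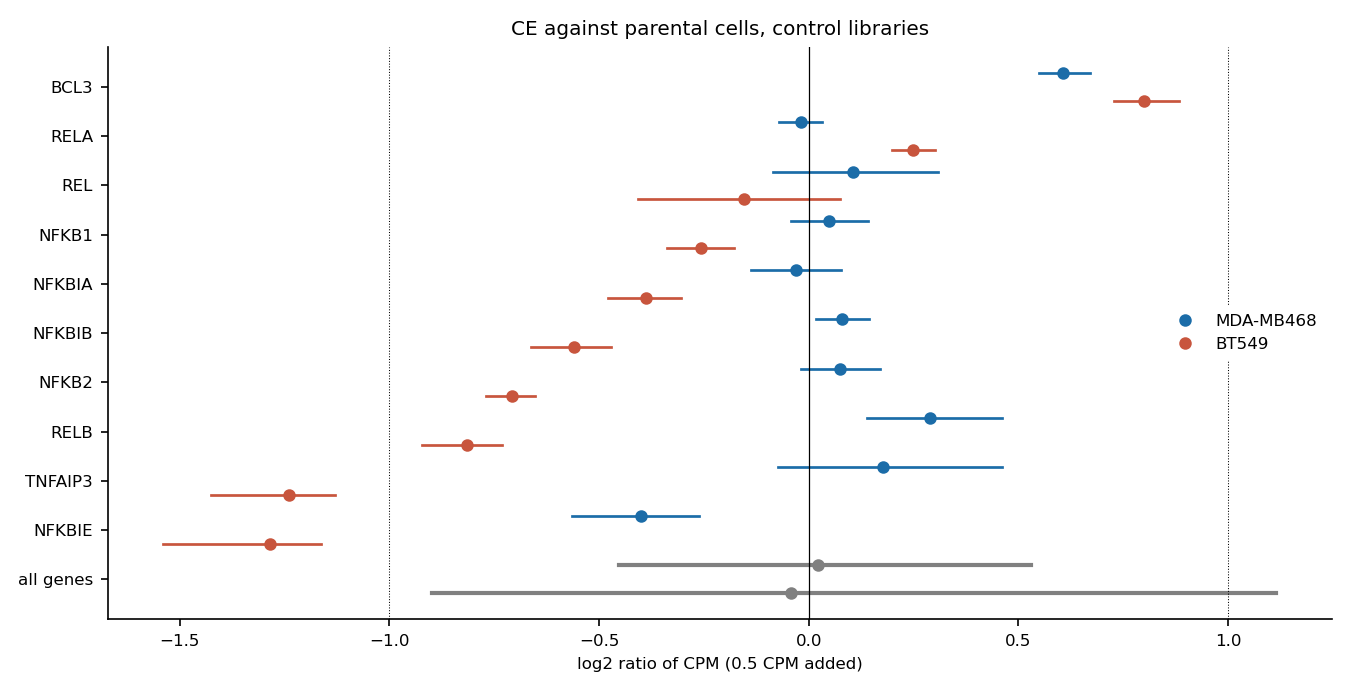
Log2 ratio of CPM, CE control against parental control (horizontal axis), for each gene in MDA-MB468 and BT549, ordered by the BT549 value; lines give the 95% counting interval, and grey lines at the bottom the 5th to 95th percentile of the 11135 genes with their median. BCL3 lies right of 0 in both lines, and most other genes lie left of 0 in BT549 and near 0 in MDA-MB468.

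Levels of different genes were compared as FPKM, CPM per kilobase of merged exons. In control libraries the mean FPKM was highest for NFKBIB (26.7 ± 12.3, SD, n = 4), BCL3 (26.1 ± 9.5) and RELA (24.5 ± 1.7), which did not differ beyond their spread. NFKB2 (12.9 ± 7.8), NFKBIA (11.2 ± 2.9) and RELB (8.79 ± 5.73) followed and overlapped, then NFKBIE (5.28 ± 1.98), NFKB1 (3.04 ± 0.49), TNFAIP3 (1.82 ± 1.53) and REL (0.45 ± 0.11). After Acetalax, NFKBIB was at 40.8 ± 3.7, RELA, RELB and NFKB2 were at 32.0 ± 7.8, 31.1 ± 10.3 and 31.1 ± 12.3, and REL stayed the lowest (0.74 ± 0.23). The leading gene depends on the exon model: with the length of the longest transcript, BCL3 (43.0 ± 15.7) and RELA (41.9 ± 3.0) were highest in control and RELA (54.8 ± 13.4) and NFKB2 (50.9 ± 20.1) after Acetalax, with NFKBIB next in both.

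The makeup of the subunit transcripts shifted towards RELB. Its share of the summed FPKM of the 5 subunits went from 10.5% to 33.1% in MDA-MB468 parental cells, from 12.5% to 26.9% in MDA-MB468 CE cells, from 25.2% to 33.1% in BT549 parental cells and from 17.6% to 30.7% in BT549 CE cells. The RELA share fell from 63.9% to 35.4%, 61.3% to 40.6%, 33.4% to 25.3% and 49.2% to 30.2% in the same order. The ratio of RELB to RELA FPKM was between 0.16 and 0.75 in controls and between 0.66 and 1.31 after Acetalax, and it rose in each background. The sizes of these shares and of this ratio depend on the exon model, while the direction of the ratio within a background does not. With the longest transcript, RELB and RELA were at 58.4 and 74.3 FPKM in BT549 CE cells after Acetalax. In BT549 parental cells they were then at 44.2 and 43.6 FPKM. The summed FPKM itself was higher after Acetalax in each background, most in BT549 CE cells (from 53.4 to 143.2). Shares of a sum cannot move independently of each other, and transcript levels do not give protein levels.

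**Figure D5:**
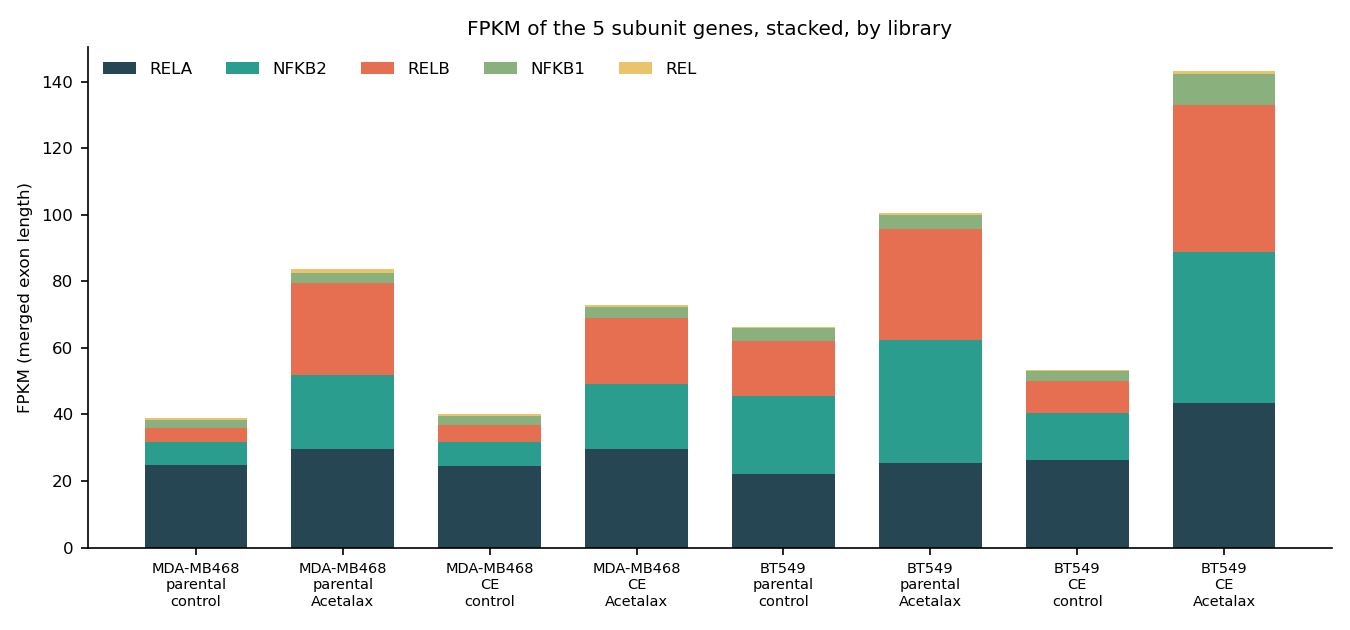
FPKM of the 5 subunit genes stacked by library (vertical axis, from 0; 1 bar per library, no replicates). The RELB and NFKB2 segments are taller in each Acetalax bar than in the control bar to its left, and the RELA segment changes little except in BT549 CE cells.

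Between the lines, with parental or CE state and treatment held the same, 4 of the 10 genes passed the edgeR test, where 56.8% of all 19693 genes did, and all 4 were higher in BT549, as were 27.3% of all genes. They were NFKB2 (log2 1.34, SE 0.19, adjusted p = 0.00158), RELB (1.25, SE 0.28, adjusted p = 0.00957), NFKB1 (0.82, SE 0.24, adjusted p = 0.0262) and NFKBIA (0.68, SE 0.13, adjusted p = 0.00533). The share called is below that of all genes, and the test compares the libraries of 1 line with those of 1 other.

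For the genes the results turn on, the 3 of the 11135 genes with the most similar pattern over the 8 libraries were sought, by the root mean square difference of centred log2(CPM + 0.5). Nearest to RELB were ETS1 (0.23), MAP2K3 (0.30) and NFKB2 (0.33), with ETS1 a transcription factor and MAP2K3 a stress kinase. RELB (0.50) was the nearest gene to TNFAIP3, followed by LIF (0.53) and ETS1 (0.57), and SPRY2 (0.18) was the nearest to NFKB2. BCL3 was most like GLB1L (0.19), HFE (0.24) and CAPN5 (0.25). The libraries are shared by all these genes, and 8 points in 4 backgrounds allow many genes to come close.

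Other genes of the pathway were taken from 5 lists. Of the 33 NF-κB target genes tested (39 of 40 found), 7 were called higher and 0 lower over the 4 backgrounds, with a median log2 change of 0.93 against -0.04 for all genes tested. That is 21.2% of the list, where 5.0% of all genes tested were called (2.72% higher). The largest were IL8 (log2 4.24, SE 0.68, edgeR adjusted p = 0.0357), the neutrophil chemokine, CCL20 (3.24, SE 0.46, adjusted p = 0.031) and the cytokine IL6 (2.80, SE 0.44, adjusted p = 0.0327). IL8 went from 1.87 to 65.4 CPM in MDA-MB468 parental and from 2.92 to 29.2 CPM in MDA-MB468 CE cells, and from 85.4 to 367.1 CPM and from 8.68 to 606.7 CPM in BT549 parental and CE cells. CCL20 was at or below 0.43 CPM in every control library, so its fitted change rests on few counts. In MDA-MB468, IL6 was at 0.14 and 0.48 CPM in parental and CE controls and at most 2.82 CPM after Acetalax, so its change there also rests on few counts. In BT549, IL6 went from 11.1 to 27.2 CPM in parental and from 6.03 to 67.3 CPM in CE cells. The 33 tested also include genes near 0 CPM, such as TNF (at most 0.54 CPM) and LTB (at most 0.38 CPM). The list median of 0.93 thus includes genes with few counts. At a mean of at least 5 CPM, 24 target genes remained. Their median log2 ratios were 0.63 and 0.39 in MDA-MB468 parental and CE cells (all genes -0.09 and -0.04). In BT549 parental and CE cells they were 0.22 and 1.46 (all genes -0.10 and -0.17).

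Receptors and ligands moved in both directions: 2 of 23 tested were called higher and 3 lower (21.7% of the list against 5.0% of all genes, median 0.11). TNFRSF12A, the TWEAK receptor, which can activate noncanonical NF-κB, rose (log2 1.27, SE 0.22, adjusted p = 0.0376), as did IL1RAP, a subunit of the interleukin 1 receptor (1.11, SE 0.22, adjusted p = 0.0418). TNFSF10, the ligand TRAIL (log2 -2.52, SE 0.56, adjusted p = 0.0465), and the pattern receptors TLR3 (-2.13, SE 0.23, adjusted p = 0.0222) and TLR5 (-1.28, SE 0.29, adjusted p = 0.0496) fell. TNFSF10 was at most 0.34 CPM in the BT549 libraries, so its change was seen in MDA-MB468 (from 100.2 to 12.9 CPM in parental cells). TLR3 was low throughout, between 0.18 and 6.18 CPM over the 8 libraries.

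Among adaptors and kinases, 2 of 28 were called higher and 1 lower (10.7% against 5.0% of all genes, median 0.09). TICAM1, the adaptor of TLR3 (log2 1.01, SE 0.18, adjusted p = 0.0377), and TRAF2, an adaptor of TNF receptors (0.49, SE 0.11, adjusted p = 0.0469), were higher, and IRAK4, the kinase next to MYD88 (-0.59, SE 0.13, adjusted p = 0.047), was lower. Of 24 ubiquitin editors 1 was called, BIRC3, a ubiquitin ligase that is itself a target (log2 2.05, SE 0.38, adjusted p = 0.0384), and of 7 atypical inhibitors 1, NFKBID (0.76, SE 0.16, adjusted p = 0.0432), both higher. For ubiquitin editors this was 4.17% of the list, near the 5.0% of all genes, and for atypical inhibitors 14.3%, a single gene. The medians of these lists were 0.18 and 0.06.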

How the data were processed

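Poly(A) RNA of 8 libraries, 1 per condition, was sequenced as paired reads by the authors, with a directional kit. Reads were aligned to hg19 with STAR (2.7.11b per the labels), and the authors deposited raw, whole-number counts per gene from its GeneCounts option. Which annotation and strand column they took is not given in the sources used here, so genes that overlap on opposite strands are uncertain. The table had 58154 rows for 55679 identifiers: 1392 were listed repeatedly and used 1 time, and 3 of these differed between their rows. The sum of counts per library was the depth. The nearest pair of libraries differed far beyond sampling noise (chi-square per degree of freedom 44.4), so each was treated as a separate library.

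For each gene, CPM, log2 ratios of CPM after adding 0.5 CPM, and FPKM (merged exons of an hg19 GENCODE annotation) were computed. Counting intervals are exact (Clopper-Pearson) at 95%, without the added 0.5 CPM, except for differences of 2 ratios, where a normal approximation was used. Background shares used the 11135 genes averaging at least 5 CPM. Tests used edgeR 4.0.16 in R 4.3.3 (quasi-likelihood, TMM, filterByExpr, Benjamini-Hochberg over all genes tested, threshold 0.05). edgeR gives no standard error for this test. The SE printed is the size of the fitted log2 change divided by the square root of the test's F statistic. The Acetalax fit had an intercept for each of 4 backgrounds and 3 residual degrees of freedom, the fit with separate parental and CE terms had 2, and that of the 4 controls had 1. The line fit had an intercept for each of 4 conditions. Of the fits, only the Acetalax fit over 4 backgrounds was tried on simulated counts. These had less spread between libraries than was fitted to the data, and no differences between lines or between CE and parental cells. That trial therefore does not show how the fits behave under the conditions of the data.

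Genes named are the 10 and, from each of 5 pathway lists, up to 3 called genes a direction with the largest change over the 4 backgrounds. The 10 genes and the lists were chosen with earlier results of these data known. Alternatives were DESeq2 1.42.0, its size factors in edgeR, all genes with at least 1 count, each background left out, other scalings, pseudocounts of 0.1 and 1 CPM, log2(FPKM + 1), a log2 threshold of 0.5 and the longest transcript. Protein sequences were not used here.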

Additional observations from a re-analysis of the deposited data

Results flagged for a closer look

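RELB differed in direction between the lines in CE against parental control cells: the log2 ratio was 0.29 in MDA-MB468 and -0.82 in BT549, a difference of -1.11. NFKBIB did likewise, with 0.08 and -0.56 and a difference of -0.64. In both cases the counting intervals lay on opposite sides of 0 in the 2 lines. That of NFKBIB in MDA-MB468 was 0.02 to 0.14. TMM scaling moved the median of all genes in that pair from 0.02 to -0.02, so the sign of its lower end depends on the scaling. Ratios of opposite sign were also seen for TNFAIP3 (0.18 and -1.24) and NFKB2 (0.08 and -0.71), among others, whose MDA-MB468 intervals included 0. With 1 library per condition these differences were not tested, and differences between cultures cannot be told apart from differences between lines.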

How the results depend on the processing

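The number of genes called for Acetalax over 4 backgrounds was 984 of 19693 tested. It was 2684 of 15544 with DESeq2 and 3585 of 37154 with all genes of at least 1 count. The number of the 10 genes called went from 5 to 9 and 10, while the share of all genes called was higher under both settings as well. With 1 background left out, edgeR called from 0 to 554 genes and from 0 to 4 of the 10. The 0 came without MDA-MB468 parental cells (smallest edgeR adjusted p 0.170, 18967 genes tested). Without MDA-MB468 CE cells, 554 of 19092 genes and 4 of the 10 were called. The calls were 311 of 19105 and 3 without BT549 parental cells, and 263 of 19174 and 3 without BT549 CE cells. Leaving out a background also leaves fewer residual degrees of freedom. In parental cells DESeq2 called 75 of 14103 genes and 1 of the 10 (RELB), where edgeR called 0. All genes of at least 1 count gave 643 of 37154 and 3 there. In CE cells these were 289 of 14103 and 5, and 1080 of 37154 and 8. All genes of at least 1 count gave 3 calls for the difference in response and 45 for CE against parental controls, where DESeq2 gave 46, and none of these was among the 10. With a log2 threshold of 0.5, 6 of the 10 were past it in MDA-MB468 parental, MDA-MB468 CE and BT549 parental cells (25.5%, 14.8% and 17.4% of all genes), 9 in BT549 CE cells (37.1%), 1 in CE against parental controls of MDA-MB468 (9.67%) and 6 in those of BT549 (31.9%). TMM scaling and DESeq2's size factors each put 1 gene past 2-fold in BT549 parental cells. With log2(FPKM + 1), only 1 was past it in CE against parental controls of BT549, where the ratios of CPM had 2. That scale also put fewer than 7 of the 10 at least 2-fold higher after Acetalax in BT549 CE cells, with a median log2 ratio of 1.16. With transcript length taken from the longest transcript, 4 of the 10 kept their rank by level. The cause of these shifts was not tested beyond what the settings themselves change. The line comparison kept 4 of the 10 called under DESeq2 (12115 of 24908 genes called) and under its size factors (11183 of 19693). All genes of at least 1 count also gave 4, with 11292 of 37154 genes called. With 1 pair left out, 3 to 5 of the 10 were called, and from 9093 of 19042 to 9913 of 19134 genes. The labels give no replicate numbers, so no fit with such numbers as a block was made; the Acetalax fits and the sign-flip test already paired each library with the control from the same background. Depth of at least 42.3 counts per CPM left the widest counting intervals for TNFAIP3, REL and NFKBIE, the genes with the fewest counts in some libraries.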
